A study of Homo sapiens with 12 samples.

Results

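The G1 cyclins, cyclin-dependent kinases (CDKs) and CDK inhibitors decide whether a cell leaves G1 and starts to copy its DNA. They were followed here in triple-negative breast cancer cells with and without a GLI2 knockout and with and without paclitaxel. The set held 10 of the 25049 genes in the count table, chosen by symbol. It comprised the D-type cyclins CCND1, CCND2 and CCND3, their kinases CDK4 and CDK6, and CDK2. It also held the inhibitors CDKN1B, CDKN1C and CDKN2C and the retinoblastoma gene RB1.

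D-type cyclins bind CDK4 or CDK6, and these complexes begin the phosphorylation of the RB1 protein. Cyclin E with CDK2 completes it, and the E2F factors that RB1 held back then switch on genes for DNA replication. INK4 inhibitors such as CDKN2C (p18) bind CDK4 and CDK6, whereas CDKN1B (p27) and CDKN1C (p57) bind cyclin-CDK complexes more broadly.

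Polyadenylated RNA was measured in 12 samples of MDA-MB-231b, a bone-tropic derivative of the established line MDA-MB-231. The derivative had been recovered from the bone marrow of athymic nude mice after injection into the tibia and again after injection into the heart. All samples came from cells transduced by lentivirus for CRISPR-Cas9, with a guide against GLI2 (GLI2 KO) or, for the cells labelled WT, a non-targeted guide, as the series design describes it. GLI2 is a transcription factor of the Hedgehog pathway. Cells of each genotype were kept for 2 days in complete medium with 50 nM paclitaxel, a taxane that stabilises microtubules, or with its solvent DMSO. This gave 4 groups of 3 samples: WT in DMSO, WT in paclitaxel, GLI2 KO in DMSO and GLI2 KO in paclitaxel. The sources used here do not say whether the GLI2 KO cells were a clone or a pool. Raised or lowered by the knockout below therefore means a difference between the GLI2 KO and WT cells. Loss of GLI2 and other differences between these cells cannot be told apart. The labels do not tie the replicates to separate cultures. The p-values therefore reflect the spread among these 12 samples alone, and that spread may be technical.

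GLI2 transcript was present in all 4 groups. In CPM (counts scaled to library size, here with composition factors from the trimmed mean of M-values, TMM), it measured 10.4, 11.4 and 10.6 in WT with DMSO and 9.28, 8.23 and 10.1 in GLI2 KO with DMSO. Under paclitaxel it measured 6.42, 5.65 and 4.97 in WT and 3.97, 4.14 and 4.39 in GLI2 KO. The knockout samples were the lower ones under each treatment. The log2 difference was -0.23 ± 0.08 in DMSO and -0.44 ± 0.09 in paclitaxel (fitted value ± SE, n = 3 per group, edgeR quasi-likelihood adjusted p = 0.0253 and 0.000243). A guide that disrupts the reading frame need not lower the transcript, so this level does not test the knockout.

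Totals ran from 83230948 to 109018776 counts per sample, and 3 counts, the floor used here, equalled 0.0275 to 0.0360 CPM. Paclitaxel samples had 24923 to 24985 genes with a count and DMSO samples 23712 to 24125, and mitochondrial genes took 4.83 to 5.33% and 3.99 to 4.69% of counts, respectively. The third GLI2 KO sample in each treatment, called libraries 11 and 12 by the labels, differed most from its fellows (chi-square per degree of freedom 12.4 and 16.2 in DMSO, 10.7 and 6.63 in paclitaxel). The second WT sample in DMSO also stood apart (10.4 and 7.70, beside 3.19 between the other WT samples in DMSO). The 6 markers of basal mesenchymal lines summed to 6711 to 6886 and 5252 to 5274 CPM in WT with DMSO and paclitaxel, and to 6543 to 6904 and 4886 to 5197 in GLI2 KO. The 4 luminal markers in the table summed to 79.0 to 80.2 and 68.3 to 69.6 CPM in WT, and to 74.7 to 79.4 and 70.1 to 70.9 in GLI2 KO. Each of these sums was lower with paclitaxel, without overlap. Of the basal markers, 5 fell with paclitaxel in each genotype and CD44 rose (log2 0.19 in WT and 0.11 in GLI2 KO). Of the luminal markers, ERBB2 fell (-0.36 and -0.18), GATA3 rose (0.58 and 0.46) and FOXA1 did not pass the test in either genotype. PGR had 1 and 2 counts in WT with DMSO and paclitaxel, and 640 and 243 in GLI2 KO. The 3 haematopoietic markers in the table summed to 0.316 to 0.367 CPM in WT with DMSO and 0.615 to 0.850 in GLI2 KO with DMSO. With paclitaxel they summed to 1.15 to 1.53 CPM in WT and 1.47 to 1.78 in GLI2 KO. Fibroblast and osteoblast markers (4 in the table) summed to 50.9 to 54.7 and 60.9 to 62.3 CPM in WT with DMSO and paclitaxel, and to 51.3 to 53.4 and 67.1 to 69.2 in GLI2 KO. The 3 endothelial markers summed to 0.391 to 0.705 and 1.30 to 1.35 CPM in WT with DMSO and paclitaxel, and to 0.828 to 1.13 and 1.77 to 1.87 in GLI2 KO. No marker in the table was at 0 throughout a group, and the part of these marker levels in the results was not tested. In bulk RNA, fewer cells of a kind and less RNA per cell cannot be told apart.

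All 10 members passed the filter on low counts. Paclitaxel in WT cells lowered 6 members, raised 3 and left CCND3 without a call, where 66.7% of the 21974 genes tested were called (34.6% higher and 32.1% lower). In GLI2 KO cells it lowered 7 and raised 3, where 65.2% of genes were called (33% higher and 32.2% lower). The members' median log2 fold change was -0.29 in WT and -0.44 in GLI2 KO, beside 0.03 and 0.02 over all genes tested. GLI2 KO against WT raised 5 members and lowered 4 in DMSO, where 41.6% of genes were called (22% higher and 19.6% lower). In paclitaxel it raised 2 and lowered 4, where 45.6% were called (23.4% higher and 22.2% lower). The samples of the groups compared did not overlap for 9 members with paclitaxel in WT, 9 in GLI2 KO, 8 for the knockout in DMSO and 7 in paclitaxel. Of all genes tested, 71.5%, 67.2%, 48.6% and 55.2% had groups that did not overlap in these comparisons. The direction of the smaller paclitaxel effects depends on scaling. Library totals and upper-quartile factors moved the median gene by 0.16 and 0.13 in WT and by 0.18 and 0.12 in GLI2 KO on the log2 scale. With either, paclitaxel raised 4 members and lowered 5 in WT. Over all genes, TMM gave 7613 higher and 7047 lower calls with paclitaxel in WT and 7250 and 7077 in GLI2 KO. Library totals gave 10352 and 4295 in WT and 10398 and 3831 in GLI2 KO, and upper-quartile factors 9905 and 4731 in WT and 9324 and 4791 in GLI2 KO.

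Promoter windows show where transcription of these genes begins and were searched for words bound by regulators of G1 genes. RefSeq windows on GRCh38.p14, each running from 250 bases before to 50 bases after a start, were matched for 6 of the 10 members (11 windows). CCND1, CCND2, CDK2 and CDKN1C had no matched window and were not searched. The RB1 window lies at chr13:48476200-48476499, far inside the gene, whose annotated start is 48303726. The bases around that annotated RB1 start were not searched. The 5'-most windows of CDK4, CDK6, CCND3 and CDKN2C are shown because these members carry the contrasts below: CDK4 and CDK6 moved in opposite directions, CCND3 had the largest rise in knockout cells with DMSO, and CDKN2C was lower with paclitaxel. They lie at chr12:57752261-57752560 (CDK4, minus strand), chr7:92836524-92836823 (CDK6, minus strand), chr6:42048639-42048938 (CCND3, minus strand) and chr1:50960495-50960794 (CDKN2C, plus strand). Capitals mark the GC box GGGCGG, the core of sites for SP-family factors, read on either strand.
CDK4: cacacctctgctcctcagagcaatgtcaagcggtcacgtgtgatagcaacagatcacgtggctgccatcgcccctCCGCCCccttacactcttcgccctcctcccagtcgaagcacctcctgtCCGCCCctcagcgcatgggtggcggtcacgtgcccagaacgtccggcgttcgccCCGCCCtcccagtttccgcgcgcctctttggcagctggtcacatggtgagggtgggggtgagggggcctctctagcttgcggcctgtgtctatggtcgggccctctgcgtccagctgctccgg
CDK6: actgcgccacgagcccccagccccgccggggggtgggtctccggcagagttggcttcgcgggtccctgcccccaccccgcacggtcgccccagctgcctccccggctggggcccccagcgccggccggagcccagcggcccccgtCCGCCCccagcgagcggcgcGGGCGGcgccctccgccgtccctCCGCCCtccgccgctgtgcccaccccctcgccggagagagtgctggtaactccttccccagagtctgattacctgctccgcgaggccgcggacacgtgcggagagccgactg
CCND3: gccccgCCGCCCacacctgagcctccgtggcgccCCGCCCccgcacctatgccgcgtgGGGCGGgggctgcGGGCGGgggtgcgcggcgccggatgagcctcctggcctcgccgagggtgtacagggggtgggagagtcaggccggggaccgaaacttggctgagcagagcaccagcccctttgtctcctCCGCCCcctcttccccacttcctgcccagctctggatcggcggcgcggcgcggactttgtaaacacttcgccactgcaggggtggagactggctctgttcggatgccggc
CDKN2C: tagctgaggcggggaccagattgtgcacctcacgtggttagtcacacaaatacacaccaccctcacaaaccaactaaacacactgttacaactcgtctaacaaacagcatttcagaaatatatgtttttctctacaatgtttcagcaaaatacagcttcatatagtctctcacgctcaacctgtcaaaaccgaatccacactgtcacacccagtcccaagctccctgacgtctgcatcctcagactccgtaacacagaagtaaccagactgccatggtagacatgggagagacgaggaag
The GC box stood 3 times in the CDK4 window, 3 times in the CDK6 window and 5 times in the CCND3 window, and 0 times in this CDKN2C window. Further CDKN2C windows, starting at 50968456 and 50969995, held it 6 times and 1 time. Further windows of CCND3 held it 0 and 4 times, and that of CDK6 0 times. The GC box occurred in 7 of the 11 windows, from 5 of the 6 members, and in 45.0% of all 35116 windows of that length. The E2F words TTTCCCGC, TTTGGCGC, TTTCGCGC and TTTGCCGC, searched on both strands, were in 0 of the 11 windows and in 3.32% of all windows. The GLI word GACCACCCA was in 0 of the 11 and 0.236% of all windows. The cell-cycle homology word TTTGAA was in 0 of the 11 and 15.2% of all windows. These matches describe letters and not bound sites, and CDK4 and CDK6 had the same number of GC boxes. The E2F and GLI words are too rare over all windows for their absence from 11 windows to set these members apart.

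CCND1, on chromosome 11 (69641087 to 69654474, plus strand, GENCODE 29 on GRCh38), encodes cyclin D1 and was the most abundant member per length in every group. CCND1 with DMSO measured 441, 494 and 444 CPM in WT and 405, 401 and 452 in GLI2 KO. CCND1 with paclitaxel measured 348, 338 and 344 CPM in WT and 317, 301 and 295 in GLI2 KO. Every paclitaxel sample lay below every DMSO sample, whereas in DMSO the genotypes overlapped. With paclitaxel CCND1 fell by 25.3% in WT and fell by 27.5% in GLI2 KO (log2 -0.42 ± 0.05 and -0.46 ± 0.05, edgeR adjusted p = 6.35e-07 and 2.07e-07). The knockout difference was -0.13 ± 0.05 in DMSO and -0.17 ± 0.05 in paclitaxel (edgeR adjusted p = 0.0343 and 0.00645). The call in DMSO was lost without the first or second GLI2 KO sample, without the second WT sample, or when only the groups compared were fitted (adjusted p = 0.152, 0.174, 0.179 and 0.104), and that in paclitaxel without the third GLI2 KO sample (0.0536). Of the exon bases of CCND1, 10.3% are shared with LTO1, which was not called for paclitaxel in either genotype. LTO1 was lower in GLI2 KO with DMSO (log2 -0.10, edgeR adjusted p = 0.0162), the direction of CCND1. With paclitaxel its knockout difference was -0.08 and not called (edgeR adjusted p = 0.0570).

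CCND2, on chromosome 12 (4273772 to 4305350, plus strand), encodes cyclin D2 and had the widest range of any member, at the lowest level. CCND2 with DMSO measured 0.377, 0.403 and 0.395 CPM in WT, from 107 counts in all. In GLI2 KO with DMSO it measured 0.0513, 0.0794 and 0.0222 CPM, from 4, 7 and 2 counts. The sample with 2 counts lay below the floor of 3. All these counts were below the filter's minimum of 10, so CCND2 passed the filter through the other groups. CCND2 with paclitaxel measured 1.71, 1.69 and 1.72 CPM in WT and 1.06, 1.29 and 1.53 in GLI2 KO, from 477 and 385 counts. No 2 groups overlapped, the order rising from GLI2 KO in DMSO through WT in DMSO and GLI2 KO in paclitaxel to WT in paclitaxel. Paclitaxel raised CCND2 by 2.12 ± 0.18 in WT and by 4.65 ± 0.27 in GLI2 KO on the log2 scale (edgeR adjusted p = 1.62e-10 and 2.45e-13). The ratio of summed counts, scaled to library size, was 4.86 in WT (95% exact binomial interval 3.93 to 6.05) and 29.2 in GLI2 KO (16.9 to 55.4), an interval that covers counting error only. The knockout difference in DMSO was -2.91 ± 0.34 (edgeR adjusted p = 1.06e-07), a count ratio of 0.128 (0.0658 to 0.228). In paclitaxel it was -0.39 ± 0.15 (edgeR adjusted p = 0.0362), a count ratio of 0.767 (0.669 to 0.880). That last call was lost with DESeq2 (adjusted p = 0.0809) and without any of 5 single samples, and it fell to -0.26 without the first GLI2 KO sample (edgeR adjusted p = 0.202). Of the exon bases of CCND2, 13.8% are shared with other annotated genes, among them the antisense gene CCND2-AS1, which is not analysed here. The use of strand is not given, so reads of the gene and its antisense partner cannot be told apart.

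CCND3, on chromosome 6 (41934933 to 42050357, minus strand), encodes cyclin D3. CCND3 with DMSO measured 72.5, 73.8 and 73.9 CPM in WT and 99.0, 101.6 and 97.4 in GLI2 KO. CCND3 with paclitaxel measured 73.0, 73.0 and 73.4 CPM in WT and 87.1, 85.0 and 83.5 in GLI2 KO. All 6 knockout samples lay above all 6 WT samples, and the WT treatments overlapped. CCND3 was 35.2% higher in GLI2 KO with DMSO and 16.5% higher with paclitaxel (log2 0.44 ± 0.03 and 0.22 ± 0.03, edgeR adjusted p = 4.67e-12 and 8.23e-07). The paclitaxel difference was -0.22 ± 0.03 in GLI2 KO and passed the test (edgeR adjusted p = 3.55e-07), while in WT the difference was -0.01 ± 0.03 (edgeR adjusted p = 0.871, 95% interval -0.07 to 0.05). The WT difference was called higher with upper-quartile factors (0.13), library totals (0.15) and a minimum count of 50 (0.06; edgeR adjusted p = 0.000353, 5.11e-05 and 0.0434). With library totals the GLI2 KO difference was -0.04 and not called (edgeR adjusted p = 0.169).

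**Figure D1:**
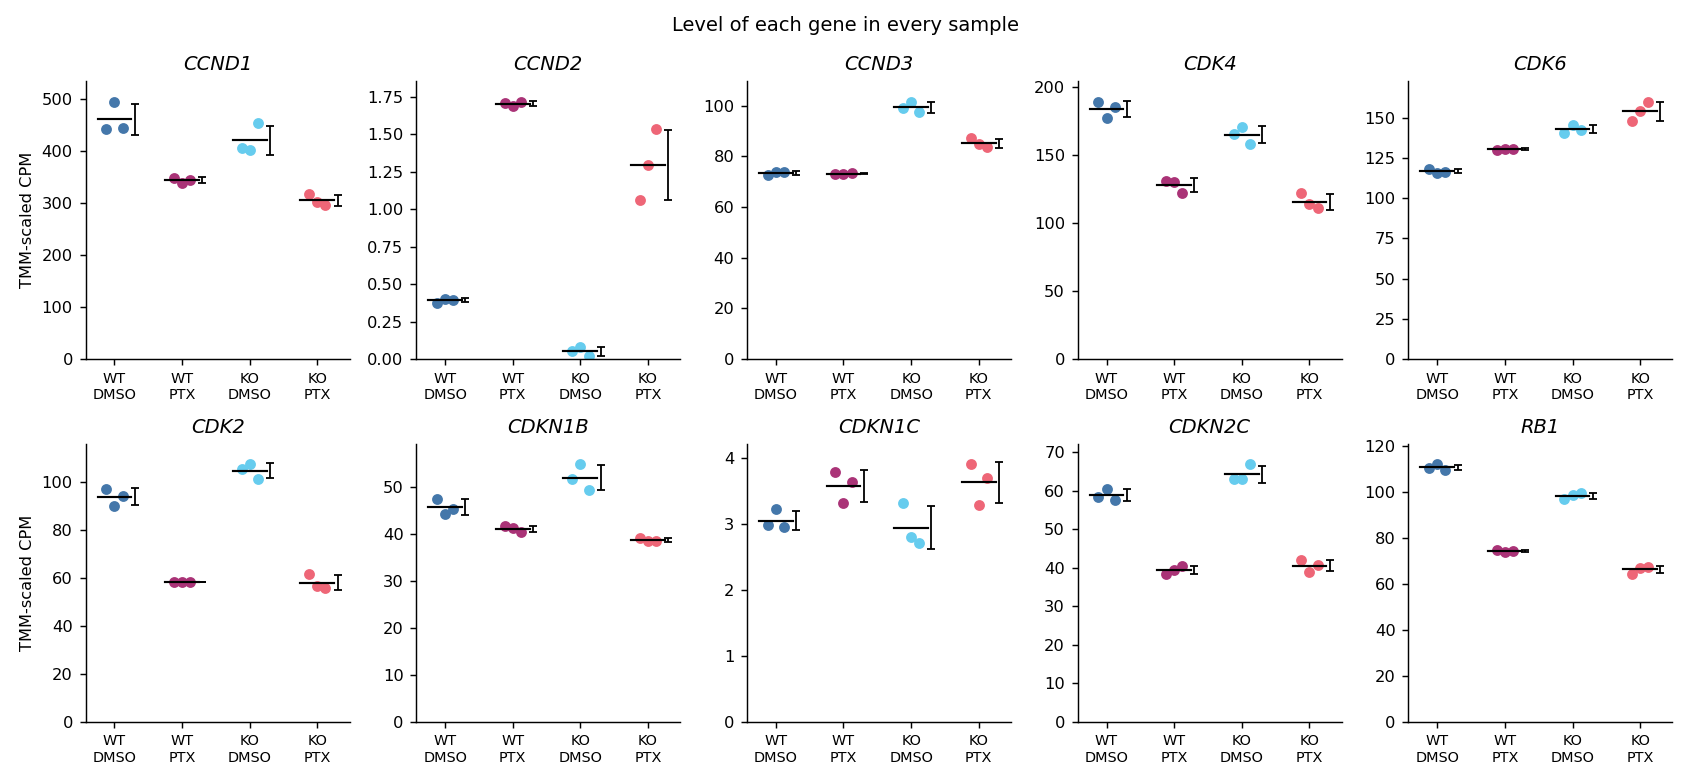
Levels of the 10 members in TMM-scaled CPM on linear axes from 0, 1 panel per gene, with a point for each of the 3 samples of a group, a line at the group mean and a bar of 1 SD to each side (PTX: paclitaxel). CCND2 spanned from 0.0222 CPM, which is 2 counts and below the floor, to 1.72 CPM. CCND3 was above WT in all 6 knockout samples, whereas the CDKN1C genotypes overlapped under each treatment.

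Because the D-type cyclins share their partners, their make-up was computed per sample as a share of CCND1, CCND2 and CCND3 counts per kilobase of exon. CCND1 took 88.2% of this sum in WT with DMSO, 84.7% in WT with paclitaxel, 83.5% in GLI2 KO with DMSO and 80.9% in GLI2 KO with paclitaxel (means of 3). CCND3 took 11.8, 15.02, 16.5 and 18.9% in the same order. CCND2 took 0.0508, 0.284, 0.00698 and 0.234%. The CCND1 share was thus lower, and the CCND3 share higher, with paclitaxel in each genotype and in GLI2 KO under each treatment. Groups did not overlap in these 4 comparisons of either share, each with a two-sided exact permutation p of 0.1, the smallest that 3 against 3 samples allow. As CCND2 took so little of the sum, the CCND1 and CCND3 shares mirror each other and are not separate results. With paclitaxel in WT the CCND3 share rose while CCND3 itself was not called (log2 -0.01 with TMM factors) and CCND1 fell (-0.42). The CCND2 share was higher with paclitaxel in each genotype and lower in GLI2 KO with DMSO, without overlap. Each of these had an exact permutation p of 0.1, adjusted over the 4 comparisons 0.133. Groups of the CCND2 share overlapped for the genotypes in paclitaxel (exact permutation p = 0.2). That overlap was absent with the longest transcript or with no division by length (exact permutation p = 0.1 each). The size of a share depends on the length used: with the longest transcript the CCND3 share was 22.3, 27.6, 29.9 and 33.4%, and its comparisons kept their direction.

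CDK4, on chromosome 12 (57747727 to 57756013, minus strand), encodes a kinase of the D-type cyclins. CDK4 with DMSO measured 189, 177 and 185 CPM in WT and 165, 171 and 158 in GLI2 KO. CDK4 with paclitaxel measured 131, 130 and 122 CPM in WT and 122, 114 and 111 in GLI2 KO. All 6 paclitaxel samples lay below all 6 DMSO samples. With paclitaxel CDK4 fell by 30.5% in WT and fell by 29.9% in GLI2 KO (log2 -0.53 ± 0.04 and -0.51 ± 0.04, edgeR adjusted p = 2.51e-11 and 4.09e-11). In GLI2 KO against WT it differed by -0.16 ± 0.04 with DMSO and -0.15 ± 0.04 with paclitaxel (edgeR adjusted p = 0.00146 and 0.00302). TSPAN31, which shares 43.2% of the exon bases of CDK4, averaged 12.3, 12.1, 15.5 and 14.8 CPM in WT with DMSO, WT with paclitaxel, GLI2 KO with DMSO and GLI2 KO with paclitaxel. It was not called for paclitaxel and was higher in GLI2 KO, against the direction of CDK4.

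CDK6, on chromosome 7 (92604921 to 92836594, minus strand), encodes the second kinase of the D-type cyclins. CDK6 with DMSO measured 118, 116 and 116 CPM in WT and 141, 146 and 143 in GLI2 KO. CDK6 with paclitaxel measured 130, 131 and 131 CPM in WT and 148, 154 and 160 in GLI2 KO. The 4 groups did not overlap, and CDK6 was higher with paclitaxel and higher in the knockout. Paclitaxel raised it by 0.16 ± 0.03 in WT and 0.11 ± 0.03 in GLI2 KO, and the knockout raised it by 0.29 ± 0.03 in DMSO and 0.24 ± 0.03 in paclitaxel on the log2 scale (edgeR adjusted p = 4.87e-05, 0.00297, 1.33e-08 and 3.59e-07). CDK6 and CDK4 therefore moved in opposite directions in each of the 4 comparisons. Per kilobase, the ratio of CDK6 to CDK4 ran from 0.161 to 0.169 in WT with DMSO and 0.256 to 0.277 with paclitaxel. In GLI2 KO it ran from 0.220 to 0.233 with DMSO and 0.313 to 0.374 with paclitaxel. The log2 ratio was higher by 0.69 with paclitaxel in WT, 0.62 in GLI2 KO, 0.45 for the knockout in DMSO and 0.38 in paclitaxel, with no overlap of groups (exact permutation p = 0.1 each, the smallest possible). Length moves the ratio itself and not these differences: in WT with DMSO it was 0.112 to 0.117 with the longest transcript and 0.624 to 0.653 with no division by length.

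**Figure D2:**
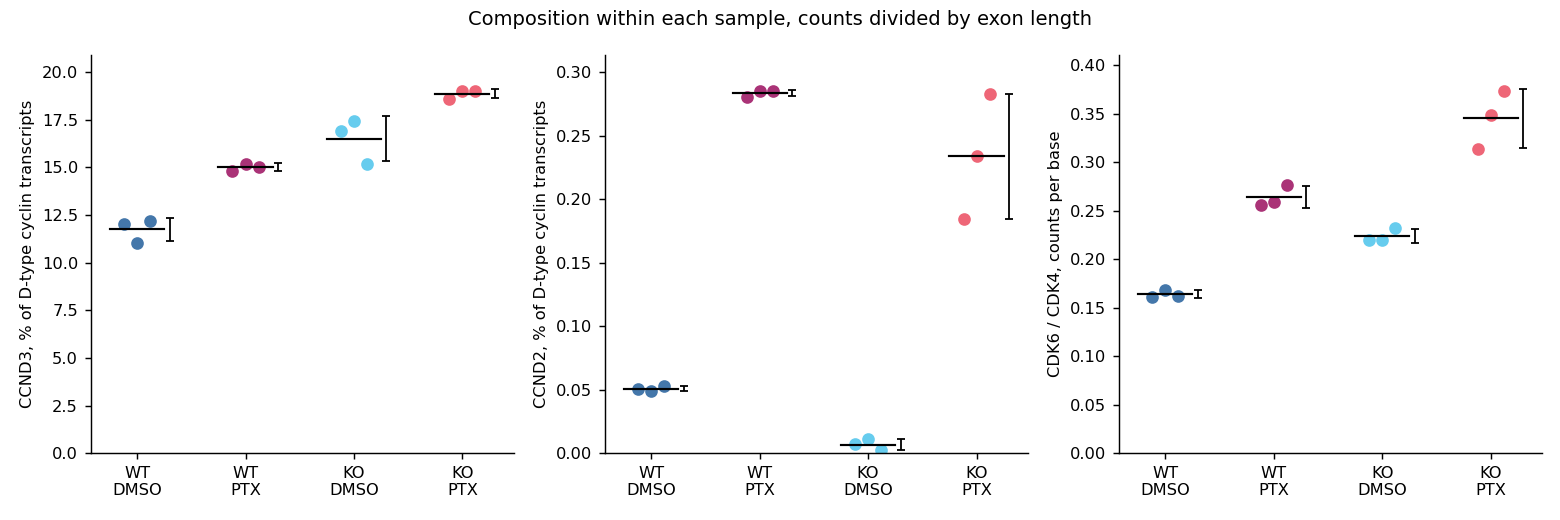
Share of CCND3 and of CCND2 in the sum of the D-type cyclins (percent, counts per base of exon) and the ratio of CDK6 to CDK4, with a point per sample, a line at the mean and a bar of 1 SD for each of the 4 groups (PTX: paclitaxel). The CCND3 share rose from a mean of 11.8% in WT with DMSO to 18.9% in GLI2 KO with paclitaxel, and the CDK6 to CDK4 ratio ran from 0.161 to 0.374.

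CDK2, on chromosome 12 (55966769 to 55972784, plus strand), encodes the partner of cyclins E and A. CDK2 with DMSO measured 97.1, 90.0 and 94.1 CPM in WT and 105, 107 and 101 in GLI2 KO. CDK2 with paclitaxel measured 58.2, 58.0 and 58.3 CPM in WT and 61.3, 56.7 and 55.9 in GLI2 KO. The treatments were far apart and the genotypes overlapped only with paclitaxel. With paclitaxel CDK2 fell by 38.0% in WT and fell by 44.6% in GLI2 KO (log2 -0.69 ± 0.04 and -0.85 ± 0.04, edgeR adjusted p = 3.47e-14 and 6.25e-16), more than any other member in either genotype. The knockout raised it by 0.16 ± 0.04 in DMSO (edgeR adjusted p = 0.000777). With paclitaxel the knockout difference was -0.005 ± 0.04 (edgeR adjusted p = 0.928, 95% interval -0.08 to 0.07). Of its exon bases, 16.8% are shared with PMEL or a further annotated gene.

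CDKN1B, on chromosome 12 (12715058 to 12722371, plus strand), encodes p27. CDKN1B with DMSO measured 47.5, 44.2 and 45.4 CPM in WT and 51.7, 54.9 and 49.4 in GLI2 KO. CDKN1B with paclitaxel measured 41.6, 41.3 and 40.4 CPM in WT and 39.1, 38.6 and 38.5 in GLI2 KO. The knockout samples were above WT with DMSO and below WT with paclitaxel. With paclitaxel CDKN1B fell by 0.43 ± 0.04 in GLI2 KO and fell by 0.15 ± 0.04 in WT on the log2 scale (edgeR adjusted p = 6.01e-10 and 0.00118). The WT call was lost with upper-quartile factors (-0.02) and library totals (0.004; edgeR adjusted p = 0.647 and 0.940). The knockout raised it by 0.19 ± 0.04 in DMSO (edgeR adjusted p = 0.00028). In paclitaxel the knockout difference was -0.09 ± 0.04 (edgeR adjusted p = 0.0715), and it was called lower under 5 alternatives, with adjusted p from 0.00831 to 0.0455.

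CDKN1C, on chromosome 11 (2883213 to 2885773, minus strand), encodes p57 and was the second lowest member. CDKN1C with DMSO measured 2.98, 3.23 and 2.96 CPM in WT and 3.32, 2.81 and 2.71 in GLI2 KO. CDKN1C with paclitaxel measured 3.80, 3.32 and 3.64 CPM in WT and 3.91, 3.30 and 3.70 in GLI2 KO. The paclitaxel samples lay above the DMSO samples in WT, and the groups overlapped in GLI2 KO. The log2 difference was 0.23 ± 0.10 in WT and 0.31 ± 0.10 in GLI2 KO (edgeR adjusted p = 0.0385 and 0.00816). The WT call was lost with DESeq2 (adjusted p = 0.0615) and without any of 4 single samples (highest adjusted p 0.134), and the GLI2 KO call without libraries 11 and 12 (0.0765). The knockout differences were -0.05 in DMSO and 0.02 in paclitaxel (edgeR adjusted p = 0.715 and 0.884).

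CDKN2C, on chromosome 1 (50960745 to 50974633, plus strand), encodes p18. CDKN2C with DMSO measured 58.3, 60.5 and 57.4 CPM in WT and 63.1, 63.0 and 66.8 in GLI2 KO. CDKN2C with paclitaxel measured 38.3, 39.4 and 40.3 CPM in WT and 41.9, 38.9 and 40.7 in GLI2 KO. The treatments did not overlap in either genotype. With paclitaxel CDKN2C fell by 33.0% in WT and fell by 37.0% in GLI2 KO (log2 -0.58 ± 0.04 and -0.67 ± 0.04, edgeR adjusted p = 1.07e-12 and 6.69e-14). The knockout raised it by 0.13 ± 0.04 in DMSO, and in paclitaxel the difference was 0.04 ± 0.04 (edgeR adjusted p = 0.00494 and 0.392).

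RB1, on chromosome 13 (48303726 to 48599436, plus strand), encodes the pocket protein that CDK4, CDK6 and CDK2 phosphorylate. RB1 with DMSO measured 110, 112 and 110 CPM in WT and 96.8, 98.4 and 99.4 in GLI2 KO. RB1 with paclitaxel measured 74.7, 73.7 and 74.4 CPM in WT and 64.4, 66.9 and 67.5 in GLI2 KO. The 4 groups did not overlap. With paclitaxel RB1 fell by 32.8% in WT and fell by 32.6% in GLI2 KO, and in the knockout it fell by 11.2% in DMSO and fell by 10.8% in paclitaxel (edgeR adjusted p = 1.56e-14, 1.83e-14, 2.46e-05 and 4.40e-05). The knockout difference was -0.17 ± 0.03 under each treatment on the log2 scale.

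**Figure D3:**
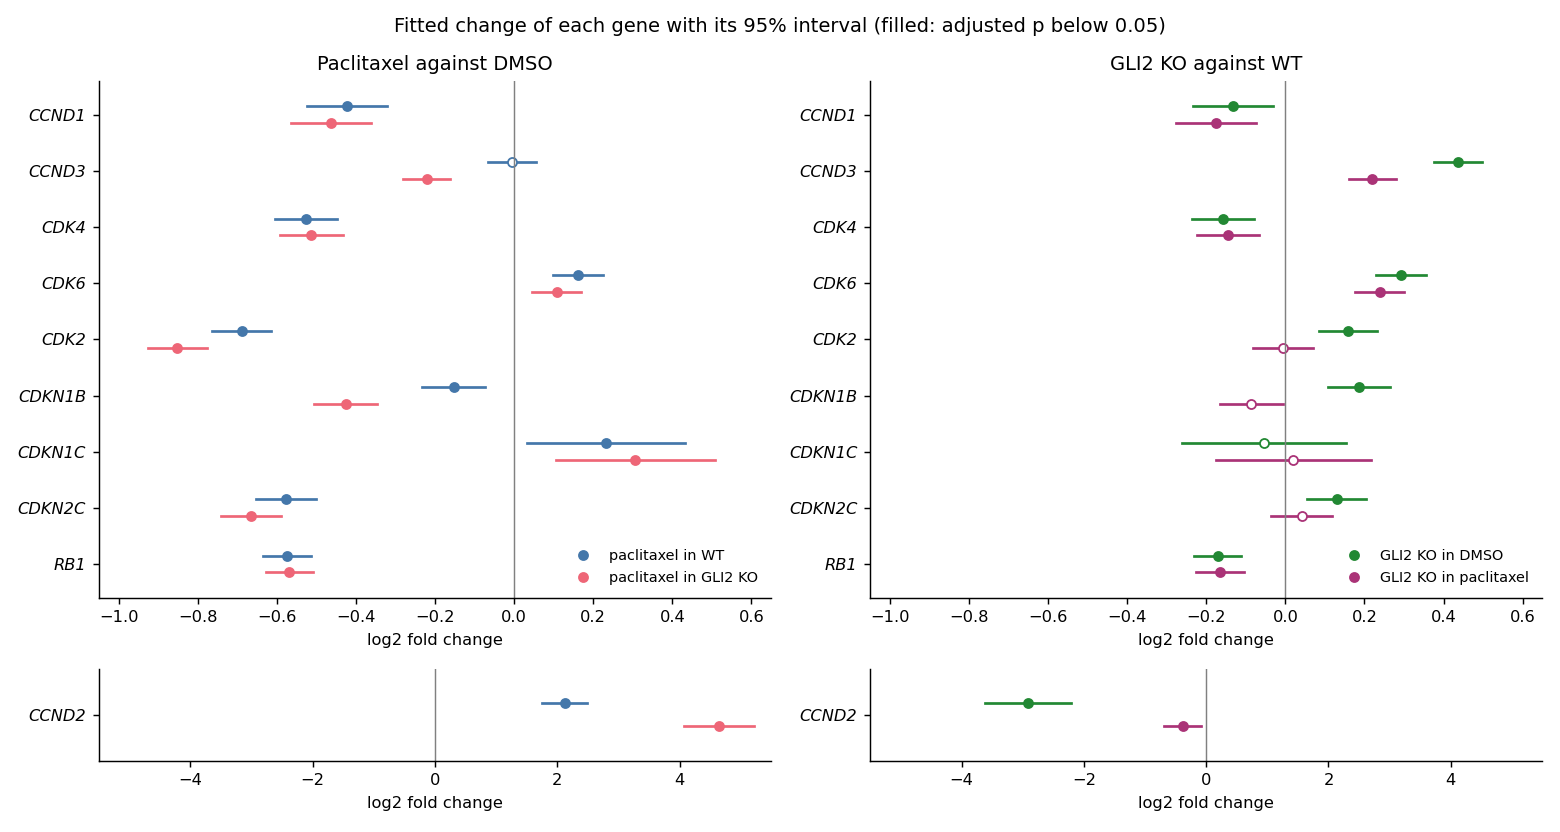
Log2 fold changes of the 10 members with 95% intervals derived from the edgeR F statistics. Paclitaxel against DMSO in each genotype is on the left and GLI2 KO against WT in each treatment on the right. CCND2 has a wider axis of its own. Filled points passed the test. CDK2, CDK4, CDKN2C, CCND1 and RB1 lay below 0 with paclitaxel in each genotype, and CCND3 and CDK6 lay above 0 for the knockout.

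The paclitaxel effect itself was then compared between genotypes with an interaction term, for which 13.5% of all genes were called (6.56% higher and 6.93% lower in GLI2 KO). Of the 10 members, 4 were called. The effect on CCND2 was more positive in GLI2 KO by 2.53 ± 0.38 on the log2 scale (edgeR adjusted p = 0.000108). This value rests on 13 counts in GLI2 KO with DMSO, near the floor, so its size is uncertain. With paclitaxel the CCND2 means were 1.30 CPM in GLI2 KO and 1.70 CPM in WT. The effects on CCND3, CDKN1B and CDK2 were more negative, by -0.22 ± 0.04, -0.27 ± 0.05 and -0.16 ± 0.05 (edgeR adjusted p = 0.00106, 0.00148 and 0.0355). The CDK2 call was lost with DESeq2 (adjusted p = 0.0681) and without any of 9 single samples (adjusted p up to 0.0996). For the other 6 members the 95% interval of the difference held 0, and for RB1 it ran from -0.08 to 0.09 and for CDK4 from -0.10 to 0.12. The paclitaxel comparison in WT and the knockout comparison in DMSO share the WT samples in DMSO, so the members' values in them are not independent.

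Levels were ordered per kilobase of exon. In WT with DMSO the order was CCND1 at 95.2, CDK4 at 58.1, CDK2 at 24.1, CDKN2C at 17.7, RB1 at 17.1, CDKN1B at 16.2, CCND3 at 12.7, CDK6 at 9.52, CDKN1C at 1.23 and CCND2 at 0.0547 CPM per kilobase. CDKN2C and RB1 overlapped there, as they did in WT with paclitaxel. CCND1, CDK4 and CDK2 kept the 3 highest places and CDKN1C and CCND2 the lowest 2 in all 4 groups, whereas the middle order changed. With the longest transcript CCND3 took the place of CDK2 among the 3 highest in every group but WT with DMSO. CCND3 stood in place 7 in WT with DMSO, 5 in WT with paclitaxel, 6 in GLI2 KO with DMSO and 4 in GLI2 KO with paclitaxel, where it overlapped CDK2 (14.7 and 14.9 CPM per kilobase). Using the longest transcript in place of all exons, 5 of 10 members kept their place in each of these last 3 groups.

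The genes of the whole table that tracked CCND2 and CDK2 most closely, among those averaging at least 5 CPM, were ranked by the root mean square difference of centred log2 CPM over the 12 samples. For CCND2 they were FOS, ZDHHC11 and AOC3 (0.67, 0.74 and 0.78). For CDK2 the 3 nearest included POGLUT3 and DNA2 (0.046 and 0.048). FOS, a subunit of the AP-1 factor, averaged 12.4 and 53.2 CPM in WT with DMSO and paclitaxel and 6.36 and 56.1 in GLI2 KO. DNA2, a nuclease and helicase of DNA replication and repair, averaged 62.4 and 38.8 CPM in WT and 66.9 and 37.2 in GLI2 KO. Within the set, CDK4 and RB1 were the closest pair (0.068), then CCND1 and RB1 (0.089) and CDK2 and CDKN2C (0.096).

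The wider pathway was read from lists that partly share genes. Of all genes tested, paclitaxel raised 34.6% and lowered 32.1% in WT and raised 33% and lowered 32.2% in GLI2 KO. The knockout raised 22% and lowered 19.6% in DMSO and raised 23.4% and lowered 22.2% in paclitaxel, and the counts below stand beside these shares. Of 23 E2F target genes, which comprise replication and nucleotide synthesis genes with cyclins and other cell-cycle regulators, 22 fell with paclitaxel in WT and 23 in GLI2 KO (median log2 -0.63 and -0.85). The exception was CDC25A, a phosphatase that activates CDK2, which was higher by 0.11 in WT. RRM2, a subunit of ribonucleotide reductase, had log2 changes of -1.04 and -1.31, and MCM5, a subunit of the replicative helicase, of -0.95 and -1.09. The interaction called 16 of the 23 as more negative in GLI2 KO (12 to 16 when 1 sample was left out, median -0.20 with all samples). Over all genes tested it called 6.93% as more negative. GLI2 KO against WT lowered 10 and raised 4 of them in DMSO, and lowered 18 and raised 0 in paclitaxel, CCNA2 and MCM6 being among the lowest (-0.83 and -0.57 in DMSO). Of 12 pocket proteins, E2F and DP factors, 10 fell in each genotype with paclitaxel, among them E2F8 (-0.83 and -0.86), RBL1 (-0.63 and -0.72) and TFDP1 (-0.53 and -0.74). RBL2, a relative of RB1, was higher in GLI2 KO by 0.39 in DMSO and 0.46 in paclitaxel, where RB1 was lower. The knockout raised 4 and lowered 4 of this list in DMSO and raised 3 and lowered 4 in paclitaxel. In WT, E2F3 and E2F6 were the 2 members of that list that rose with paclitaxel.

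Of 6 genes for cyclins E and A, CDK1 and CDC25A, 4 fell in WT and 5 in GLI2 KO with paclitaxel. The knockout raised 2 and lowered 2 in DMSO and raised 1 and lowered 4 in paclitaxel. CCNE1, the cyclin of CDK2 at the G1/S boundary, fell by 0.89 in WT and fell by 1.002 in GLI2 KO. CCNE2 fell in each (-0.47 and -0.98), and this effect differed between genotypes by -0.50. CCNA1, a germline-enriched A-type cyclin, rose by 1.81 and 1.27, from a mean of 0.472 to 1.64 CPM in WT and from 1.64 to 3.92 CPM in GLI2 KO. CCNA2, the somatic A-type cyclin, was lower in GLI2 KO, with log2 differences of -0.83 in DMSO and -0.76 in paclitaxel and with 147 CPM in WT and 82.6 CPM in GLI2 KO with DMSO.

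Of 5 other CDK inhibitors, 3 were analysed here, because the count table has no row named CDKN2A or CDKN2B. With paclitaxel 2 rose and 1 fell in WT, and 1 rose and 2 fell in GLI2 KO, while the knockout raised 2 and lowered 1 in DMSO and raised 1 and lowered 1 in paclitaxel. CDKN1A, which encodes p21, rose with paclitaxel by 0.43 in WT and 0.68 in GLI2 KO and was higher in the knockout by 0.36 and 0.61, from a mean of 13.4 CPM in WT with DMSO to 27.8 CPM in GLI2 KO with paclitaxel. CDKN2D, which encodes p19, rose by 0.19 in WT and fell by 0.40 in GLI2 KO with paclitaxel, an interaction of -0.59. CDKN3, a phosphatase that acts on CDK2, fell with paclitaxel (-0.18 in WT and -0.38 in GLI2 KO) and was lower in the knockout (-0.45 in DMSO and -0.65 in paclitaxel). With upper-quartile factors or library totals 0 of the 3 fell in WT. Of 15 genes for turnover of G1 cyclins and inhibitors, 11 fell in WT and 10 in GLI2 KO with paclitaxel. With library totals these counts were 7 and 5. The knockout lowered 8 and raised 3 in DMSO and lowered 7 and raised 2 in paclitaxel, the raised ones being no larger a share than over all genes. SKP2, the F-box protein that marks p27 for degradation, fell in each genotype (-0.96 and -1.07). FBXW7, the F-box protein for cyclin E, was lower in GLI2 KO, with differences of -0.92 in DMSO and -1.14 in paclitaxel (30.5 and 16.2 CPM in WT and GLI2 KO with DMSO).

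**Figure D4:**
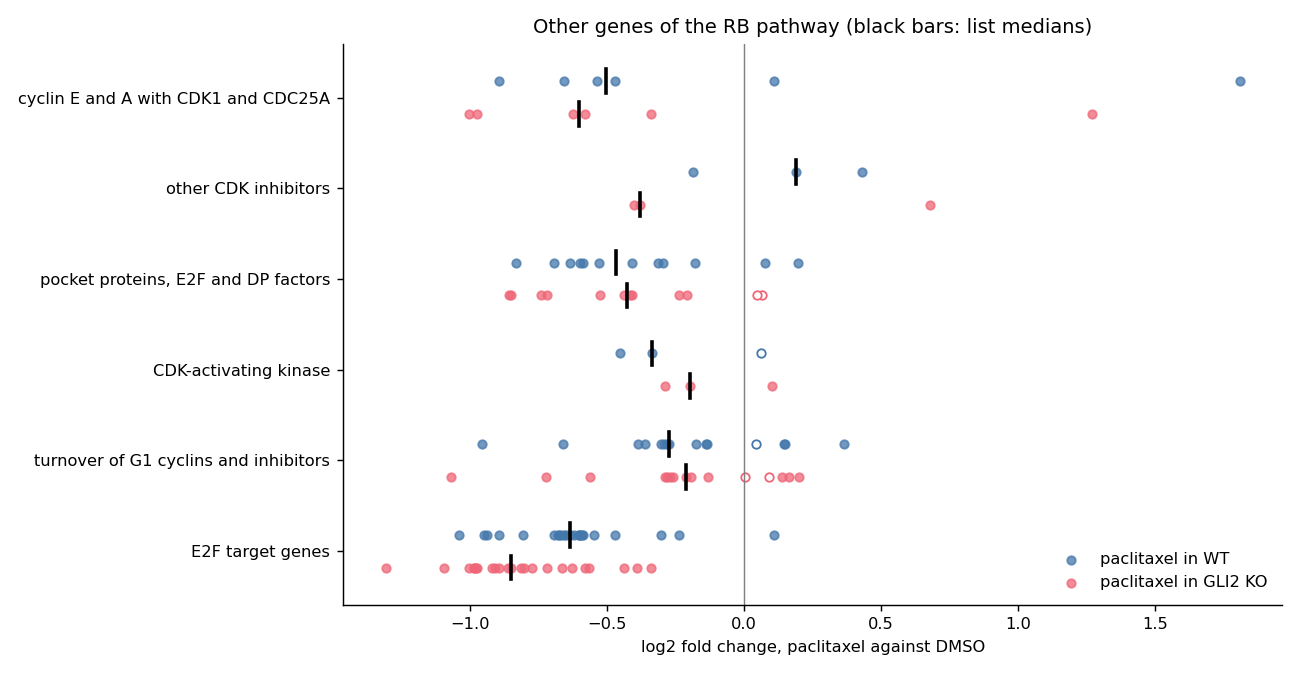
Log2 fold changes with paclitaxel in WT and in GLI2 KO for the genes of the pathway lists. Filled points are genes that passed the test and black bars are list medians. The DREAM and MuvB list, described further below, is not shown. Of the E2F target genes, 22 of 23 in WT and 23 of 23 in GLI2 KO lay below 0.

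The chromosomal surroundings of the members were read from the 40 nearest expressed genes, 20 on each side. Around RB1 their median knockout difference was -0.20 in DMSO and -0.20 in paclitaxel, beside -0.17 for RB1 itself. Around CDK6 it was 0.11 and 0.17, beside 0.29 and 0.24 for CDK6. For the other 8 members it lay between -0.08 and 0.12 under either treatment. For CCND3, at 0.44 in DMSO, the surrounding median was 0.05.

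**Figure D5:**
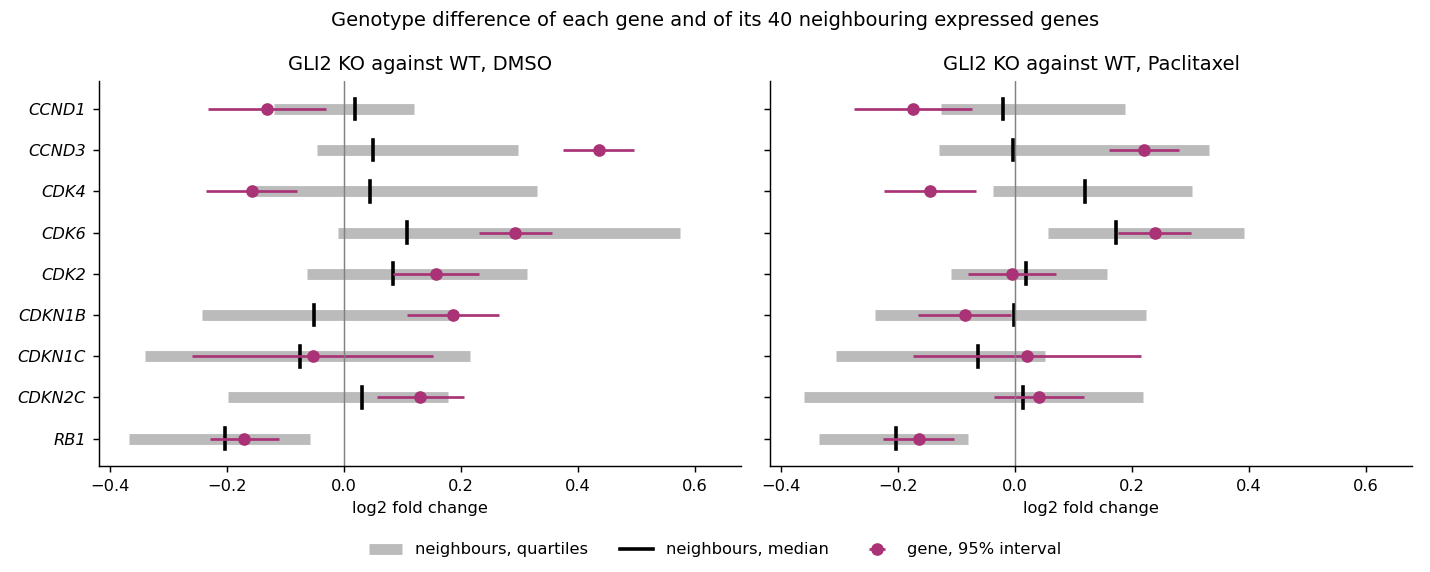
GLI2 KO against WT on the log2 scale in DMSO (left) and paclitaxel (right): a point with its 95% interval for the member, and a black bar (median) and grey band (quartiles) for its 40 nearest expressed genes. CCND2 is left out for its wider scale. The genes around RB1 have a median of -0.20 under each treatment, near the member's own -0.17.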

How the data were processed

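Polyadenylated RNA of 12 MDA-MB-231b samples was analysed, 3 in each group, grouped by their titles. The deposited table holds the authors' whole-number counts for 25049 genes, with totals of 83230948 to 109018776 per sample. The deposited normalized signal table was not used. Tools listed in the submitters' processing notes, with no role stated, are DESeq2 1.36.0, STAR and Trim Galore 0.6.7, and the build listed is hg38. How reads were counted, on which annotation and with what strand setting: not given in the sources used here.

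Counts were fitted with edgeR 4.0.16 in R 4.3.3 (quasi-likelihood, robust, TMM factors, filterByExpr with a minimum count of 10), leaving 21974 genes and 8 residual degrees of freedom. P-values are two-sided, Benjamini-Hochberg adjusted within a contrast over all genes tested, and called below 0.05. The SE of a log2 fold change was its absolute value divided by the square root of its F statistic. The 95% intervals used the t distribution on the test's total degrees of freedom, which include those edgeR borrows across genes. Both are approximate, above all at low counts. DESeq2 1.42.0, limma 3.58.1 (voom), other factors and filters, and leaving out each sample were alternatives. The fit was also run on simulated counts, with set changes in a small part of the genes in the WT paclitaxel group. These changes were balanced between higher and lower. Such counts cannot test the choice of scaling factors, because far more genes were called with paclitaxel in the real data. Coordinates come from GENCODE 29 on GRCh38.

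All 10 members and GLI2 were named, and from each list up to 4 called genes with the largest fold change and up to 2 not called per comparison, with their values in other comparisons where given. The rule also named the 3 genes closest to CCND2 and to CDK2, of which 1 is not reported here. Members and lists were chosen with earlier results of these data known. The genes that share exon bases with members were chosen after the overlaps were seen. Intervals from counts cover counting error only.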

Additional observations from a re-analysis of the deposited data

Results flagged for a closer look

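For 4 members the paclitaxel effect differed between the genotypes by the interaction term of the edgeR quasi-likelihood fit, which called 13.5% of all genes. Values are the log2 effect in GLI2 KO minus that in WT, with 3 samples per group. CCND2 differed by 2.53 ± 0.38 (edgeR adjusted p = 0.000108), with effects of 4.65 in GLI2 KO and 2.12 in WT. The CCND2 effect in GLI2 KO starts from 13 counts in DMSO, near the floor. CCND3 differed by -0.22 ± 0.04 (edgeR adjusted p = 0.00106), with effects of -0.22 and -0.01. CDKN1B differed by -0.27 ± 0.05 (edgeR adjusted p = 0.00148), with effects of -0.43 and -0.15. CDK2 differed by -0.16 ± 0.05 (edgeR adjusted p = 0.0355), with effects of -0.85 and -0.69. The CDK2 call was lost with DESeq2 (adjusted p = 0.0681) and in 9 of the 12 fits that left out 1 sample.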

How the results depend on the processing

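Of the recomputed values for single members, 739 kept their direction and their side of the threshold, 29 lost the call, 5 gained it and 27 changed sign. With longest-transcript lengths, 5 of 10 members kept their place in the order of levels in WT with paclitaxel, 5 in GLI2 KO with DMSO and 5 in GLI2 KO with paclitaxel. Changed signs of log2 values were as follows, and their cause was not tested. CCND3 with paclitaxel in WT became 0.127 (upper-quartile factors), 0.150 (library totals), 0.0622 (minimum count of 50) and 0.0119 (only the groups compared). CDKN1B with paclitaxel in WT became 0.00353 with library totals. CDKN1C for the knockout in paclitaxel became -0.0137 with upper-quartile factors. RB1 in the interaction became -0.00279 (minimum count of 50), -0.000184 (no filter) and -0.00485 (upper-quartile factors). Without libraries 11 and 12, an alternative chosen after seeing the data, CDK2 for the knockout in paclitaxel became 0.0232, CDKN1C for the knockout in DMSO 0.00452 and CCND1 in the interaction 0.0370. Leaving out 1 sample at a time, these values ranged as follows: CDK2 for the knockout in paclitaxel from -0.0450 to 0.0232, CDKN1C for the knockout in DMSO from -0.140 to 0.00492 and in paclitaxel from -0.0335 to 0.0849, and, in the interaction, CCND1 from -0.0987 to 0.0139, CDK4 from -0.0301 to 0.0432 and RB1 from -0.00788 to 0.0223. Library totals gave 1770 higher and 1249 lower interaction calls, beside 1441 and 1522. No paired analysis was possible because the titles carry library numbers and no replicate number shared between groups, and nothing states that neighbouring libraries form pairs. CCND2 rests on 13 counts in GLI2 KO with DMSO, which limits its fold changes.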

Other observations

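Subunits, partners and regulators of DREAM and MuvB, complexes that repress or activate cell-cycle genes with the relatives of RB1, formed a further list of 8 genes. With paclitaxel 6 fell and 1 rose in WT, and 5 fell and 1 rose in GLI2 KO, with median log2 values of -0.20 and -0.15. Of all genes tested, 66.7% were called in WT (32.1% lower) and 65.2% in GLI2 KO (32.2% lower). With library totals 3 fell in WT and 3 in GLI2 KO, and the GLI2 KO median was 0.02. DYRK1A, a kinase that promotes DREAM assembly, was the gene that rose, by 0.61 in WT and 0.37 in GLI2 KO. FOXM1, a transcription factor for mitotic genes, fell in each genotype (-0.29 in WT and -0.64 in GLI2 KO), an interaction of -0.34. Of the 3 subunits of the CDK-activating kinase, MNAT1 fell (-0.45 in WT and -0.29 in GLI2 KO), as did CCNH (-0.34 and -0.19). CDK7, the catalytic subunit, was 0.06 in WT without a call and rose by 0.10 in GLI2 KO. With upper-quartile factors or library totals 1 subunit was lower in GLI2 KO, and the median of the 3 there was -0.07 and -0.02, beside -0.19 with TMM factors.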
